A study of Mus musculus with 35 samples.

Results

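The 10 genes described here encode enzymes that add or remove methyl groups on lysines 4 and 36 of histone H3, and were taken from a list of names at their GRCm38 positions: the H3K4 writers Kmt2a, Kmt2b and Kmt2d, the H3K4 erasers Kdm1a, Kdm1b, Kdm5a and Kdm5b, the H3K36 writers Setd2 and Nsd1, and the eraser Kdm4a. They are 10 of 21631 protein-coding genes on 19 autosomes and X in the gene table, and all 10 were found in it. The data are peak positions of H3K4me3, H3K27me3 and H3K36me3 in female mouse germ cells, mapped by CATCH-seq, in which chromatin cut with micrococcal nuclease is immunoprecipitated together with carrier DNA so that few cells suffice.

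The cultured groups, in their order in culture, were oogonia-like cells (c7) and oocyte-like cells of an earlier (c13) and a later (c34) stage, all from H18, 1 line of embryonic stem cells bearing a Prdm1-mVenus and a Dppa3-ECFP reporter. The animal groups were fetal oocytes of embryonic stage E18.5, from mice bearing these reporters too, and germinal vesicle (GV) oocytes of BDF1 mice, so the GV group also differs in strain. All groups are given as wild type, and the title of the study places the cultures under conditions without ovarian somatic cells. The 35 libraries comprised 9 of H3K4me3, 9 of H3K27me3, 8 of H3K36me3 and 9 of input, and were deposited as 13 peak lists, 1 per mark and stage, with H3K27me3 alone at c7. No list has a replicate list and no read depth is given, so no difference below could be set against replicate spread, no test was possible, and a longer list may come from deeper libraries or a lower threshold. A peak carried by part of the cells cannot be told from one carried by all.

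H3K4me3 marks the starts of active and poised genes, H3K36me3 is laid down over transcribed bodies as RNA polymerase passes, and H3K27me3 is the mark of Polycomb repression. In growing mouse oocytes these marks take unusual forms: KMT2B, also known as MLL2, lays broad H3K4me3 over untranscribed regions, H3K36me3 written by SETD2 guides de novo DNA methylation, and KDM1B is needed to set maternal DNA methylation imprints.

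For H3K4me3 and H3K27me3 a gene was called by any peak that came within 1 kb of its start, and for H3K36me3 by coverage of 20% or more of its annotated span. RefSeq promoters on GRCm38.p6 gave a start and a strand for 7 of the 10 genes. For Kmt2b, Kdm5a and Nsd1 no start was matched, and a peak within 1 kb of either annotated end counted. H3K4me3 peaks lie on a 1 kb grid and peaks of the other marks on a 10 kb grid, which limits every distance and width below.

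The promoter sequences of 3 genes are shown because they are the extremes of start coverage: in the window of 5 kb on each side of the start, the part covered by H3K4me3 peaks ranged over the stages from 40.0% to 92.9% for Kmt2a and from 50% to 100% for Setd2, the widest ranges of the 7 genes with a start, and from 77.2% to 92.8% for Kdm1a, the narrowest. The sequences are from RefSeq, GRCm38.p6, run 5′ to 3′ on the gene's strand and end at the base before the annotated gene span. Kmt2a is on the minus strand at chr9:44881353-44881539, Setd2 on the plus strand at chr9:110532347-110532499 and Kdm1a on the minus strand at chr4:136602788-136602973. Capitals mark CG, the dinucleotide that DNA methyltransferases act on, which reads the same on both strands and cannot overlap itself.
Kmt2a: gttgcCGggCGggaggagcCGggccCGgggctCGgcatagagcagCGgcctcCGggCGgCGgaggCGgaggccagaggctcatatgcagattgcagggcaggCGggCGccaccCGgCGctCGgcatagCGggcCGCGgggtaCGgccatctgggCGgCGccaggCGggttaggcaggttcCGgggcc
Setd2: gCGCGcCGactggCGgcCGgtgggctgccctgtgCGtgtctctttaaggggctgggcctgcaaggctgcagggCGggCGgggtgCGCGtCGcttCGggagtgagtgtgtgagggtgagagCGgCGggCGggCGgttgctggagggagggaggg
Kdm1a: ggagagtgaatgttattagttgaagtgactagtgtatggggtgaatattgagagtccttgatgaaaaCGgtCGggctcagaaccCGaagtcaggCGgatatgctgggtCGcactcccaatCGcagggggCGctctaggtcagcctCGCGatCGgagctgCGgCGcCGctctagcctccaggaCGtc
These stretches hold 23 CG in 187 bases for Kmt2a, 16 in 153 for Setd2 and 14 in 186 for Kdm1a. In the full promoter windows of 300 bases, Setd2 had 38 CG and Kmt2a 36, numbers reached by 6.53% and 8.25% of the 21045 promoters in the table. Kdm1a had 29 (reached by 17.3%), Kmt2d 27 (20.9%), Kdm1b 26 (22.8%), Kdm5b 17 (43.1%) and Kdm4a 13 (51.4%), and the median promoter had 13. The 7 promoters thus run from CG-dense to the median of all genes.

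H3K4me3 lay at the promoters of all 10 genes in every list of the mark. The same rule called 70.9% of all protein-coding genes in c13, 65% in c34, 60.6% in E18.5 oocytes and 72.5% in GV oocytes, and 54.2% of genes were called at all 4 stages. No gene of the 10 differed in its H3K4me3 call between stages. Of all genes, 3.04% were called in c34 and not in GV oocytes and 10.6% the other way, 10.8% in c13 and not in E18.5 oocytes and 0.485% the other way, 3.52% in c34 and not in c13 and 9.39% the other way, and 16.1% in GV oocytes and not in E18.5 oocytes and 4.15% the other way. H3K27me3 lay at the promoters of none of the 10 in c7 (43.1% of all genes) and E18.5 oocytes (36.5%), 7 in c13 (57.1%), 2 in c34 (40.4%) and 1 in GV oocytes (25.9%). H3K36me3 covered the bodies of 7 in c13 (67.8% of all genes), all 10 in c34 (63.5%) and GV oocytes (62.2%), and none in E18.5 oocytes (22.1%). In c13 the share of the 10 for H3K36me3 was close to that of all genes.

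**Figure D1:**
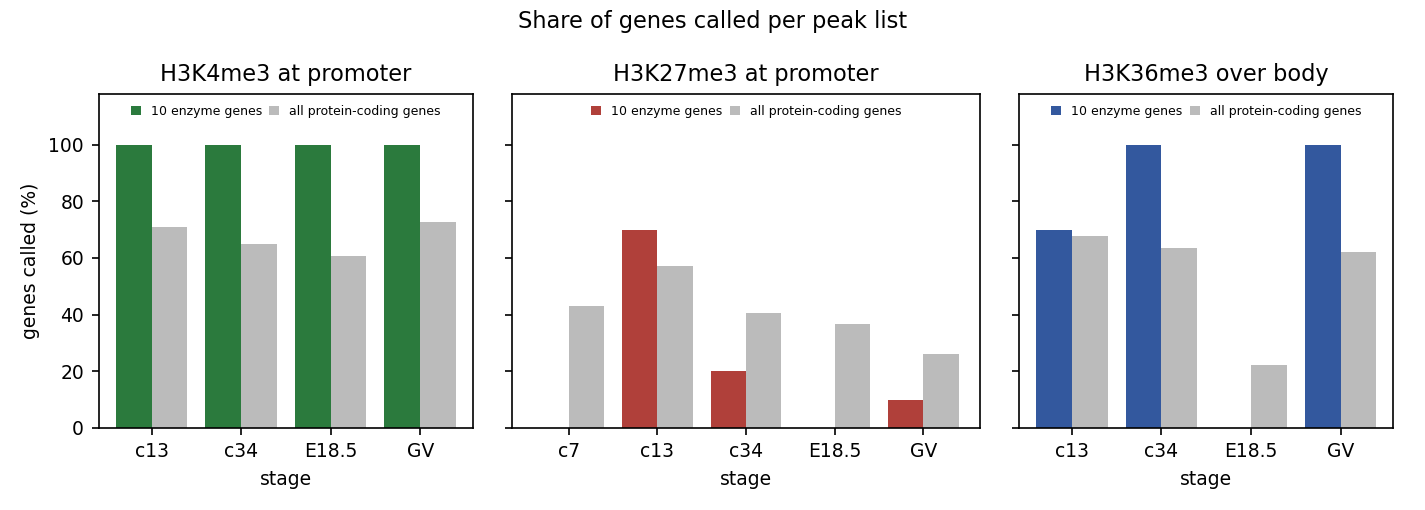
Bars give the percent of genes called in each peak list, coloured for the 10 enzyme genes and grey for all 21631 protein-coding genes, by stage and for each mark. The enzyme genes stand at 100% for H3K4me3 in all 4 stages and for H3K36me3 in c34 and GV oocytes, and at 0 for H3K36me3 in E18.5 oocytes and for H3K27me3 in c7 and in E18.5 oocytes.

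The defining markers of the cells were read in the same way, as promoter H3K4me3, which is not expression. All 3 germ cell markers (Ddx4, Dazl, Sycp3) carried a peak at each of the 4 stages with this mark, and all 4 oocyte markers (Figla, Nobox, Gdf9, Zp3) did so except Zp3 in E18.5 oocytes. Of the 3 markers of ovarian somatic cells, Foxl2 and Amh carried a peak at every stage and Fshr at none. The blood marker Ptprc had none at any stage, whereas Cd79a had one in c34 and GV oocytes. Zfp42 of embryonic stem cells had a peak at every stage and Nanog in c13 and in E18.5 oocytes. The part of other cells in the results was not tested.

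Among the H3K4 writers, Kmt2a, at chr9:44803355-44881352 on the minus strand, encodes MLL1, which keeps H3K4me3 at developmental genes. Its start at base 44881289 lay under an H3K4me3 peak of 5 kb in c13, 4 kb in c34, 11 kb in E18.5 oocytes and 34 kb in GV oocytes. In GV oocytes it ran 29.7 kb upstream and 4.29 kb into the gene, and 3 further peaks of 20, 18 and 15 kb followed along the gene. H3K4me3 peaks covered 3.02% of the gene in c13, 12.0% in c34, 6.86% in E18.5 oocytes and 65.4% in GV oocytes.

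H3K27me3 over Kmt2a also differed between stages. In c13 a peak of 30 kb at chr9:44880001-44910000 held the start and 10.3% of the gene was covered in all. No H3K27me3 peak of c34 or of E18.5 oocytes touched the gene, and the one nearest to the start lay 88.7 kb away in both. In GV oocytes 1 peak of 100 kb at chr9:44800001-44900000 covered the whole gene, its upstream flank and the far end, a state shared by 19.4% of all genes at that stage for the body.

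H3K36me3 over Kmt2a was absent in c13 and in E18.5 oocytes. In c34 a peak at chr9:44740001-44870000 covered 85.4% of the gene and stopped 11.3 kb short of the start. In GV oocytes the peak had the same edge beyond the far end but stopped at base 44830000, 51.3 kb from the start, and covered 34.2% of the gene. No other gene of the 10 differed as much in span coverage between c34 and GV oocytes for H3K27me3 or for H3K36me3. Within the gene, all 3 GV lists overlapped over 13.6 kb. A further 37.4 kb held H3K4me3 and H3K27me3 without H3K36me3, 13000 bp held H3K27me3 and H3K36me3 without H3K4me3, and H3K27me3 lay alone over 14000 bp.

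This triple state, with promoter H3K4me3, H3K27me3 over more than 90% of the body and an H3K36me3 body in GV oocytes, was found at 819 genes or 3.79%, and Kmt2a was the only one of the 10, a combination singled out after the values were seen. Its H3K36me3 part rests on 34.2% of Kmt2a and was not called when 50% was required. The lists of different marks come from separate libraries, so their overlap does not place 2 marks on the same nucleosome, allele or cell. Over all 13 lists, only Tmem25 (chr9:44793772-44799524) and Ttc36 (chr9:44799400-44802951) had the same calls as Kmt2a, and they are named for that reason after the calls were seen. Both lie next to its far end, under the same H3K36me3 peaks.

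**Figure D2:**
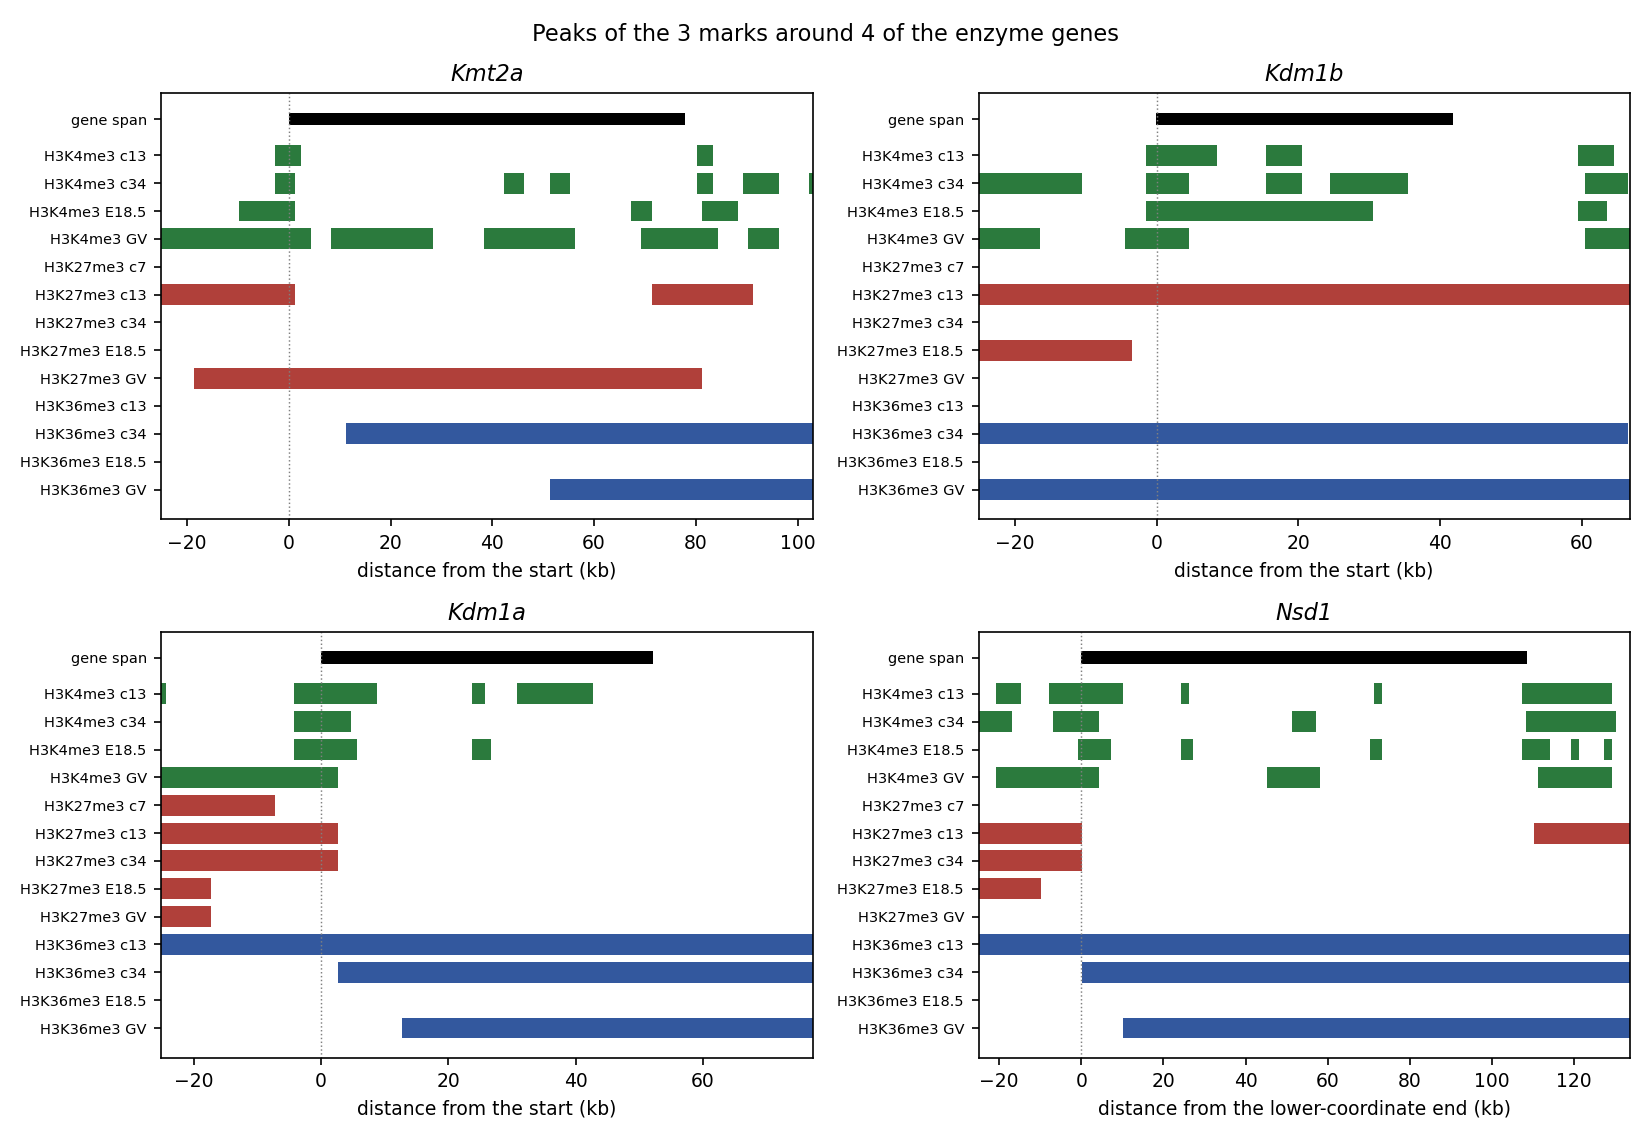
Each row shows the peaks of 1 mark at 1 stage as bars against the distance in kb from the start of Kmt2a, Kdm1a and Kdm1b and from the lower-coordinate end of Nsd1, with the gene span in black above. In c34 H3K36me3 begins 11.3 kb into Kmt2a, 2.72 kb into Kdm1a and 0.219 kb into Nsd1, against 51.3 kb, 12.7 kb and 10.2 kb in GV oocytes, where H3K4me3 also reaches farther upstream of these 3 places.

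Kmt2b, at chr7:30568855-30589056, encodes the MLL2 that lays down broad H3K4me3 in oocytes. A single c13 H3K4me3 peak of 63 kb at chr7:30551001-30614000 held the whole gene and overlapped 9 protein-coding genes in all. The span was covered by 75.2% in c34, against 10.2% in GV oocytes, where the peak at the upper end was 3 kb wide, as in E18.5 oocytes, where coverage was also 10.2%. Both animal stages thus had the same 3 kb peak at chr7:30587001-30590000, whereas the cultured stages had wider ones. The lower end had a peak of 15 kb in c34 that reached into the gene, and in GV oocytes one of 10 kb whose edge stopped 0.855 kb outside the gene.

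H3K27me3 never covered the body of Kmt2b. The c13 call rests on a peak of 620 kb whose edge lay 0.945 kb beyond the upper end, just inside the window, and the nearest peaks in c34 and GV oocytes were both 18.9 kb from the lower end. H3K36me3 peaks with the same edges, chr7:30490001-30670000, covered the gene in c34 and in GV oocytes. In c13 the gene lay in a peak of 1550 kb, and in E18.5 oocytes no H3K36me3 peak touched it.

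Kmt2d, at chr15:98831669-98874077 on the minus strand, encodes MLL4, which mainly writes monomethyl H3K4 at enhancers. It had one of the broadest c13 H3K4me3 peaks of the list, 52 kb at chr15:98821001-98873000, wider than those of 91.0% of marked genes. In c34 the start peak was 10 kb, against 9 kb in GV oocytes, and in E18.5 oocytes it was 6 kb with a separate peak of 24 kb inside the gene. The gene was covered by 97.5% in c13, 31.4% in c34, 71.5% in E18.5 oocytes and 22.2% in GV oocytes. The start in the promoter table, 98871205, lies inside the annotated span, whose end is at 98874077, and the peaks of c13, c34 and E18.5 all stop at 98873000, so only the GV peak reaches within 1 kb of that annotated end.

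Kmt2d was also 1 of 2 genes, with Kdm1b, covered throughout by H3K27me3 in c13, beside 48.5% of all genes, under a peak of 560 kb. No H3K27me3 peak touched it at any other stage, and the one nearest to the start was 18.8 kb from it in c34, against 61.2 kb in GV oocytes. H3K36me3 covered it throughout in c34 (chr15:98810001-98950000) and GV oocytes (chr15:98810001-98960000), with edges that differed by 1 grid step on 1 side. In c13 it lay within an H3K36me3 peak of 11370 kb that held 199 protein-coding genes.

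Of the erasers of mono- and dimethyl H3K4, Kdm1a, at chr4:136550533-136602787 on the minus strand, encodes LSD1. Its H3K4me3 start peak was 13 kb in c13, 9 kb in c34, 10 kb in E18.5 oocytes and 29 kb in GV oocytes. The edge upstream of the start was the same, 4.28 kb away, in c13, c34 and E18.5, and lay 26.3 kb upstream in GV oocytes. On the gene side it reached 8.72 kb in c13, 4.72 kb in c34, 5.72 kb in E18.5 oocytes and 2.72 kb in GV oocytes, the shortest. The wide GV peak therefore lay almost wholly outside the gene, 5.33% of which was covered.

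At Kdm1a the H3K27me3 and H3K36me3 peaks met. In c34 an H3K27me3 peak of 700 kb began at base 136600001, 2.72 kb inside the gene, and an H3K36me3 peak ended at the base before it. In c13 the H3K27me3 peak had the same edge at the gene, and the start lay at the same time within an H3K36me3 peak of 10140 kb. In GV oocytes the H3K27me3 edge lay 17.3 kb upstream of the start, as in E18.5 oocytes, and the H3K36me3 edge 12.7 kb inside the gene, so the start was in neither. H3K36me3 covered 94.7% of the gene in c34, against 75.5% in GV oocytes.

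Kdm1b, at chr13:47043373-47085279 on the plus strand, encodes LSD2, whose loss in mouse oocytes prevents maternal imprints at some loci. Its E18.5 H3K4me3 peak of 32 kb at chr13:47042001-47074000 was wider than those of 99.5% of marked genes at that stage, and covered, with the start, 73.1% of the gene. In c13 the start peak was 10 kb and coverage 32.5%. In c34 it was 6 kb, against 9 kb in GV oocytes, and coverage was 49.2% in c34, against 11% in GV oocytes. Separate intragenic peaks of 5 and 11 kb were present in c34 and had no counterpart in GV oocytes, and the 5 kb peak, chr13:47059001-47064000, was in the c13 list with the same edges.

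A c13 H3K27me3 peak of 2070 kb held the whole of Kdm1b, and no H3K36me3 peak touched it at that stage. In c34 the opposite was seen, with H3K36me3 over 100% and no H3K27me3. GV oocytes had the same arrangement as c34, and the H3K27me3 peak nearest to the start, chr13:46930001-47000000, was identical in both. At E18.5 neither mark touched the gene, and an H3K27me3 peak lay 3.5 kb from the start, outside the window of 1 kb.

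Of the erasers of di- and trimethyl H3K4, Kdm5a, at chr6:120364099-120444574, had the least varying H3K4me3 coverage of the gene span among the 10. The H3K4me3 peak at its lower end was 3 kb, chr6:120363001-120366000, in c13 and in E18.5 oocytes, with identical edges. It was 20 kb in c34, against 4 kb in GV oocytes, and reached 17.1 kb outside the gene in c34, against 1.1 kb. In the window of 5 kb on each side of the lower end, coverage was 79.0% in c34, 40.0% in GV oocytes and 30.0% in c13 and E18.5. Coverage of the span was 3.61% in both c34 and GV oocytes and 2.36% in both c13 and E18.5. No H3K27me3 peak touched Kdm5a at any stage, and H3K36me3 covered it throughout in c13, c34 and GV oocytes.

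Kdm5b, at chr1:134560178-134632878 on the plus strand, encodes a demethylase that narrows broad H3K4me3 in early mouse embryos. Its start peak was 8 kb in c13, 6 kb in c34 and E18.5 and 29 kb in GV oocytes, and the upstream edge was the same, 4.18 kb away, in c34, E18.5 and GV oocytes. Into the gene the peak reached 1.82 kb in c34, against 24.8 kb in GV oocytes, and the E18.5 peak reached as far as that of c34. The GV peak lay there over H3K36me3, which covered Kdm5b throughout in c34 and in GV oocytes. Coverage by H3K4me3 was 2.51% in c34, against 47.9% in GV oocytes, the reverse of Kdm1b.

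In c13 Kdm5b had H3K27me3 on both sides, a peak of 50 kb that ended 0.178 kb before the start and one of 200 kb from base 134630001 that held 3.96% of the gene, and had no H3K36me3. The promoter call therefore depends on a window wider than the start base. In c34 the H3K27me3 peak nearest to the start lay 160178 bp from it, against 320178 bp in GV oocytes.

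Of the H3K36 writers, Setd2, at chr9:110532500-110618633 on the plus strand, encodes the enzyme of trimethyl H3K36. Its H3K4me3 start peak was 22 kb in c13, 13 kb in c34, 9 kb in E18.5 oocytes and 5 kb in GV oocytes. The c34 peak began 8.6 kb before the start, and the GV peak 0.596 kb before it, while both reached 4.4 kb into the gene. A c13 peak of 86 kb over the far end raised coverage to 24.5%, and the other lists covered between 4.06% and 5.23%. No H3K27me3 peak touched Setd2, and of the 5 lists the one with a peak closest to the start was c13, at 2.6 kb. The whole gene lay in H3K36me3 peaks that began at the same base, 109830001, and were 1070 kb wide in c34, against 1030 kb in GV oocytes.

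Nsd1, at chr13:55209782-55318325, encodes a writer of mono- and dimethyl H3K36. At its lower end the H3K4me3 peak was 18 kb in c13, 11 kb in c34, 8 kb in E18.5 oocytes and 25 kb in GV oocytes. In c34 and in GV oocytes it ended at the same base, 4.22 kb inside the gene, and reached 6.78 kb outside the gene in c34, against 20.8 kb in GV oocytes. An H3K27me3 peak ended at 55210000 in c13 and in c34, 0.202% of the span inside the gene. In c34 the H3K36me3 peak began at the next base, so both marks met 218 bp from the lower end. In GV oocytes the H3K27me3 peak nearest to the lower end was 39.8 kb away and the H3K36me3 edge lay 10.2 kb inside, which left 90.6% of the gene covered, against 99.8% in c34.

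Kdm4a, at chr4:118136957-118180090 on the minus strand, encodes an eraser of trimethyl H3K9 and H3K36. Its H3K4me3 start peak was 24 kb in c13, 7 kb in c34, 13 kb in E18.5 oocytes and 5 kb in GV oocytes. Coverage of the gene was 81.5%, 25.8%, 48.9% and 4.85% in the same order, with the GV list the lowest. No H3K27me3 peak touched Kdm4a at any stage, and the one closest to the start, in c13, was 9.96 kb away. H3K36me3 covered it throughout in c13, c34 and GV oocytes, with the peaks of c34 and GV oocytes starting at the same base, 117750001.

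**Figure D3:**
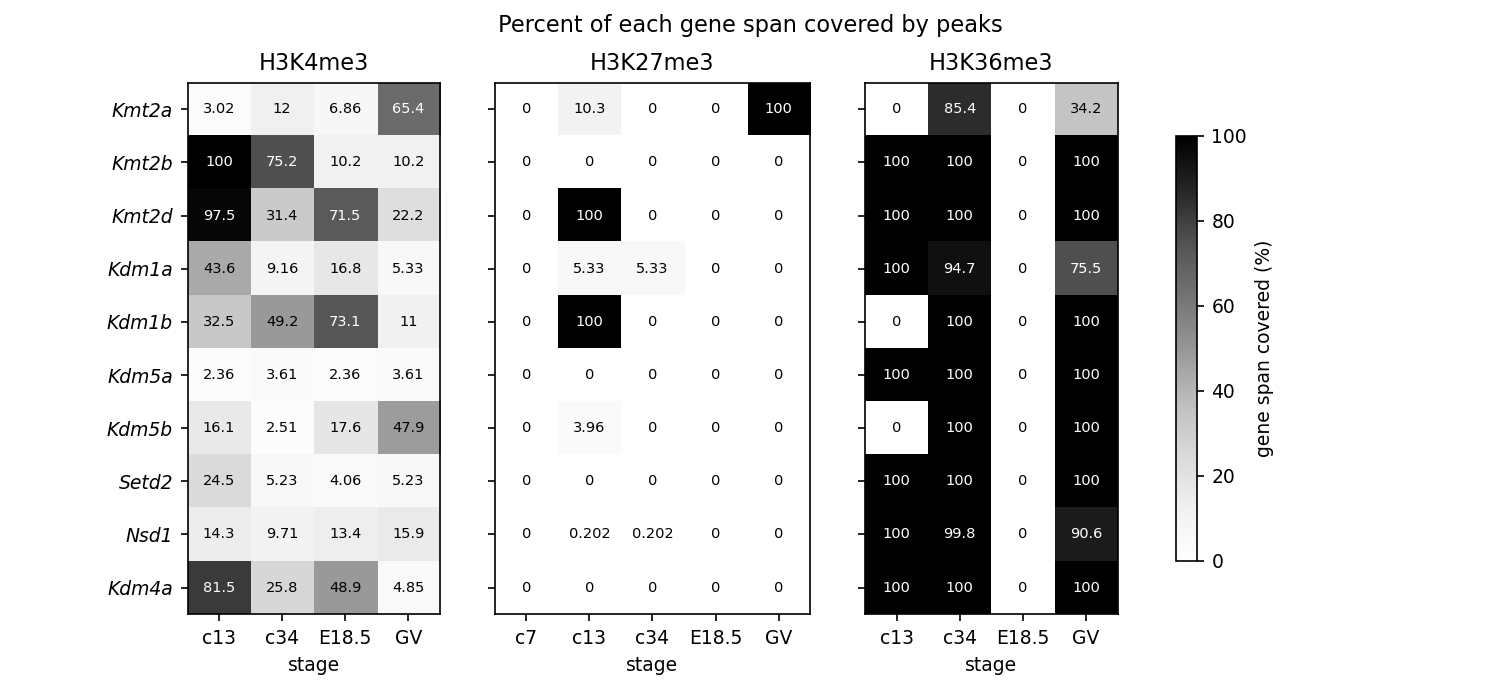
Each cell gives the percent of a gene's span covered by peaks of 1 mark at 1 stage, darker for more, with the 10 genes in rows. H3K36me3 stands at 100 for 7 genes in c34 and in GV oocytes and at 0 for all 10 in E18.5 oocytes, and H3K27me3 reaches 100 only for Kmt2d and Kdm1b in c13 and Kmt2a in GV oocytes.

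The comparison of c34 with GV oocytes asks how the latest cultured stage resembles the oocyte from animals. H3K36me3 calls were equal for all 10 genes, whereas 6.46% of all genes were called in c34 only and 5.23% only in GV oocytes. Within each span and 5 kb on each side, the overlap of the H3K36me3 lists as a Jaccard index (shared over joint length) had a median of 1.0, as for all genes with a peak, and the lowest values were 0.442 for Kmt2a, 0.816 for Kdm1a and 0.912 for Nsd1. For H3K4me3 the median index was 0.414, beside 0.444 over all genes, from 0.207 for Kdm5b to 0.715 for Kdm1a. H3K27me3 calls differed at 3 genes: Kdm1a and Nsd1 were called in c34 only, as were 17.2% of all genes, and Kmt2a only in GV oocytes, as were 2.64%. Each of the 4 genes with an H3K27me3 peak at either stage (Kmt2a, Kdm1a, Setd2, Nsd1) had an index of 0.0. The median over all genes with a peak was 0.313.

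The 3 genes with a promoter H3K27me3 call in c34 or GV oocytes, Kmt2a, Kdm1a and Nsd1, were also the 3 whose start or lower end lay outside H3K36me3 peaks at both stages. Their H3K4me3 peaks at that place were 4, 9 and 11 kb wide in c34, against 34, 29 and 25 kb in GV oocytes. The upper end of Nsd1 lay inside H3K36me3 peaks at both stages. Its lower end in c34 was 0.219 kb outside, less than a step of the 10 kb grid. This grouping of 3 genes was made after the values were seen. The other 7 genes lay wholly within H3K36me3 peaks in c34, as did 50.5% of all genes, and in GV oocytes, as did 46.5%. Their c34 peaks, of 6 to 20 kb, overlapped in width with those of the 3 genes, and their GV peaks were 4 to 10 kb wide apart from that of Kdm5b with 29 kb. Among all genes with a table start and an H3K4me3 peak there, the median c34 width was 5.0 kb for 3086 starts outside H3K36me3 peaks and 8.0 kb for 7917 starts inside. In GV oocytes it was 28.0 kb for 5122 starts outside and 10.0 kb for 7165 inside, so the order of these medians was opposite in c34 and GV oocytes.

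**Figure D4:**
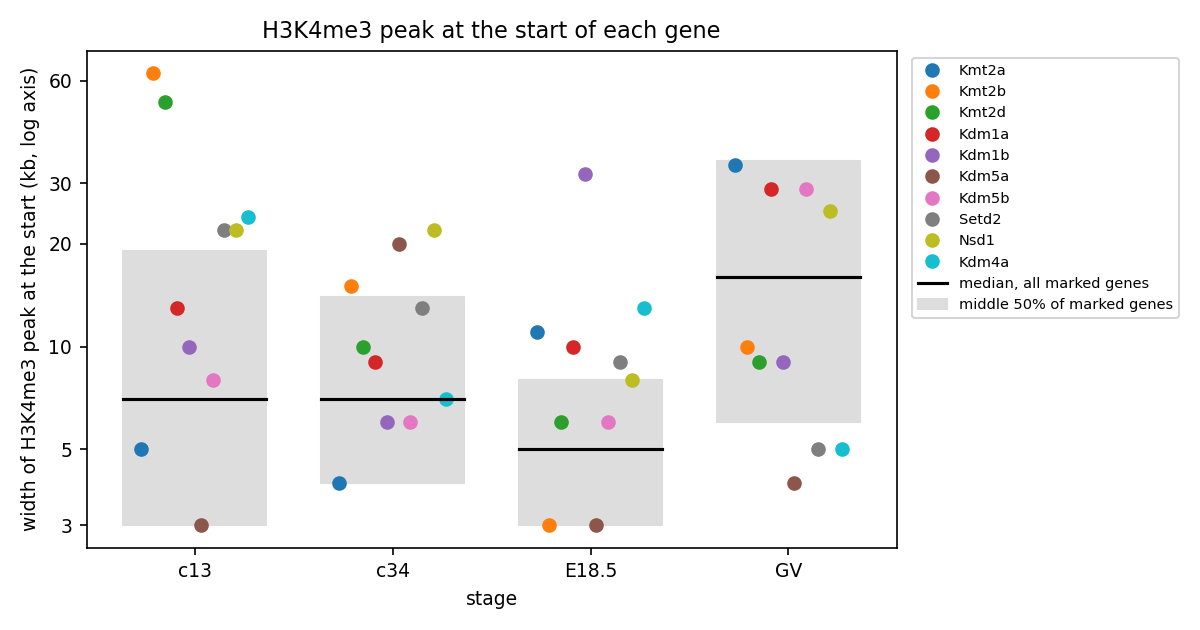
Points give the width in kb, on a log axis, of the widest H3K4me3 peak within 1 kb of the start of each gene, or of either end for Kmt2b, Kdm5a and Nsd1, by stage, with the median of all marked genes as a line and their middle 50% as a grey box. In GV oocytes Kmt2a, Kdm1a, Kdm5b and Nsd1 lie at 25 to 34 kb, above the median of 16.0 kb, and the other 6 at 4 to 10 kb, below it. The values above the median stay within the middle 50% of marked genes, which runs from 6.0 to 35.0 kb.

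For Kmt2b, Kdm5a and Nsd1, as for all genes without a start, the widest peak at either end was taken here as the start peak. For Nsd1 this was the upper end peak of 22 kb in c13 and c34. Start peaks of the 10 genes had a median width of 17.5 kb in c13, 9.5 kb in c34, 8.5 kb in E18.5 oocytes and 9.5 kb in GV oocytes. In c34 the widest were 22 kb at Nsd1, 20 kb at Kdm5a and 15 kb at Kmt2b, all genes without a start. Those of genes with a start ran there from 4 kb (Kmt2a) to 13 kb (Setd2). Over all marked genes the medians were 7.0, 7.0, 5.0 and 16.0 kb. The median of the 10 genes was thus above that of all genes in c13, c34 and E18.5 and below it in GV oocytes. The same order held for coverage of the span by H3K4me3, with medians of 28.5%, 10.9%, 15.1% and 10.6% for the 10 genes and 12.4%, 10.2%, 5.91% and 14.5% for all genes. The whole GV H3K4me3 list, from 1 library, covered 644.51 Mb. Those of c13, c34 and E18.5 covered 254.242, 258.858 and 135.284 Mb.

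The comparison of c13 with E18.5 sets the cultured oocyte-like cells against fetal oocytes. H3K36me3 was called at 7 genes in c13 only, beside 55% of all genes, and at none only in E18.5 oocytes, beside 9.24%. All 10 genes were without any H3K36me3 peak in E18.5 oocytes, as were 76.8% of all genes, and the peak nearest to the start, or to either end for the 3 genes without one, lay between 323 kb (Kdm1b) and 5210 kb (Kmt2a) away. The 7 were covered throughout in c13, as were 64.9% of all genes. The c13 calls rest on very wide peaks, of 1550 kb (Kmt2b) to 11370 kb (Kmt2d) with 52 to 199 protein-coding genes each. Without peaks of 1 Mb or more none of the 7 remained. Such peaks made up 79.8% of the length of the whole c13 H3K36me3 list, beside 4.77% for c34, 34.4% for E18.5 and 4.8% for GV. The share of all genes still called without them was not computed, so the loss cannot be read as particular to the 7 genes. Peaks over the 10 genes in c34 and GV oocytes were 80 to 1210 kb wide.

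H3K27me3 was called at 7 genes in c13 only, beside 29.9% of all genes, and at none only in E18.5 oocytes, beside 9.31%. Its Jaccard index had a median of 0.0 over the 8 genes with a peak, as over all genes with a peak. For H3K4me3 the Jaccard index had a median of 0.473, beside 0.4 for all genes, and ran from 0.17 for Kmt2b to 1.0 for Kdm5a. By the promoter calls, both H3K4me3 lists had a peak at the start, or at an annotated end, of all 10 genes, and the peak of Kdm5a was the same in both.

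Between the cultured stages, H3K27me3 was called in c34 only at none of the 10 genes, beside 7.35% of all genes, and in c13 only at 5, Kmt2a, Kmt2b, Kmt2d, Kdm1b and Kdm5b, beside 24.1%. H3K36me3 was called in c34 only at Kmt2a, Kdm1b and Kdm5b, beside 11.2%, and in c13 only at none, beside 15.6%. These 3 genes are among the 5. In c13 against c7, H3K27me3 was called in c13 only at 7 genes, beside 22.9% of all genes, and in c7 only at none, beside 8.89%. Between the animal stages, H3K36me3 was called in GV oocytes only at all 10 genes, beside 48.4% of all genes, and in E18.5 oocytes only at none, beside 8.31%. H3K27me3 was called in GV oocytes only at Kmt2a, beside 10.6%, and in E18.5 oocytes only at none, beside 21.3%. All 10 genes thus had H3K36me3 bodies in c34 and GV oocytes and not in E18.5 oocytes, a combination found at 44.7% of all genes.

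Taking all 5 H3K27me3 lists, Kdm5a, Setd2 and Kdm4a were called in none, as were 26.7% of genes, and Kmt2b, Kmt2d, Kdm1b and Kdm5b in c13 alone, as were 11.8%. Promoters with both H3K4me3 and H3K27me3 numbered 7 in c13 (46.3% of all genes), 2 in c34 (22.6%), 0 in E18.5 oocytes (17.6%) and 1 in GV oocytes (14.1%). Where H3K27me3 and H3K36me3 peaks abut, as at Kdm1a and Nsd1 in c34, 1276 of 11452 H3K36me3 peak edges did so across the genome in c34, or 11.1%, against 440 of 12372 or 3.56% in GV oocytes. In c13 it was 0.726% of edges and in E18.5 oocytes 1.03%.

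The joint length of the 10 genes is 625.8 kb. In c34, H3K36me3 alone covered 83.3% of it and H3K4me3 with H3K36me3 but without H3K27me3 14.4%, against 72.1% and 11.7% in GV oocytes. In c13, H3K36me3 alone covered 43.8%, the same pair without H3K27me3 18.2% and all 3 marks 7.09%, and 20.8% carried no peak. At E18.5, H3K4me3 alone covered 20.9% and the remaining 79.1% carried no peak.

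**Figure D5:**
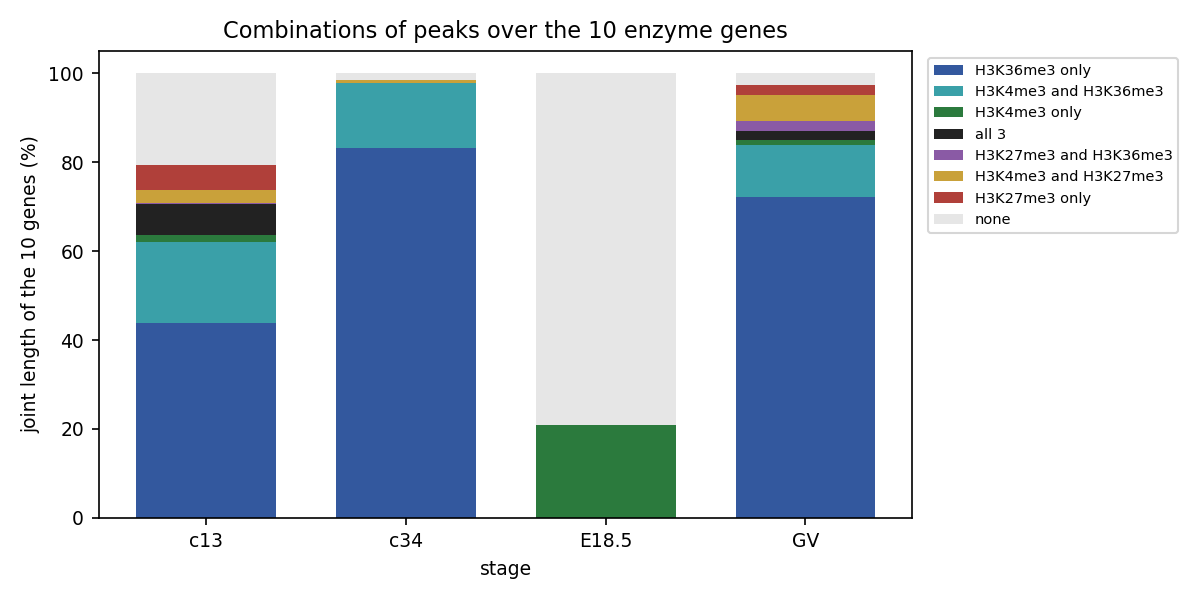
Stacked bars give the percent of the 625.8 kb of the 10 genes under each combination of peaks, by stage. H3K36me3 alone takes 83.3% in c34 and 72.1% in GV oocytes, and the E18.5 bar holds only H3K4me3 (20.9%) and length with no peak (79.1%).

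The 7 genes with a strand were divided into 10 equal parts from start to end. H3K36me3 covered on average 78.1% of the first part in c34, against 71.4% in GV oocytes, and 100% from the third part on in c34, against the eighth in GV oocytes. The same means over 7912 genes of at least 20 kb were 60.3% in the first part in c34 and 70.6% in the last, against 54.3% and 71.5% in GV oocytes. In both sets the cover was lowest at the start, and the gap among the 7 comes from Kmt2a and Kdm1a alone.

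A list of 26 other enzymes and partners of H3K4 and H3K36 methylation was read beside the 10. Promoter H3K4me3 was found at 25 in c13, c34 and in E18.5 oocytes and at 24 in GV oocytes. Setd5 had no promoter H3K4me3 peak at any stage by the 1 kb rule, although such peaks covered 3.6% to 13.4% of its span. Kdm2b, which encodes a CpG-binding H3K36 demethylase, had a promoter H3K4me3 peak in c34 and none in GV oocytes. H3K27me3 was called at 4 in c7, at 12 in c13, at 4 in E18.5 oocytes and at Smyd3 alone in both c34 and GV oocytes. H3K36me3 was called at 24 in c13, 26 in c34, 8 in E18.5 oocytes and 26 in GV oocytes.

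Between c13 and E18.5 the H3K27me3 call of the wider list was in c13 only for Ash1l and Nsd2, writers of dimethyl H3K36, Smyd3, the demethylase genes Kdm2b and Kdm4d, the COMPASS subunits Ash2l, Dpy30 and Cxxc1, and Iws1, and in E18.5 oocytes only for Phf8. The H3K36me3 call was in c13 only for 17, among them Setd1a, Setd1b and Kmt2c, and in E18.5 oocytes only for Kdm4c. The 8 genes with H3K36me3 in E18.5 oocytes, Nsd3, Kdm5c, Kdm4c, Ash2l, Dpy30, Cxxc1, Psip1 and Phf8, set the wider list at 30.8%, whereas the 10 genes stood at 0 beside 22.1% of all genes. For comparison, E18.5 H3K36me3 was called at 2 of 8 DNA methylation genes and 2 of 13 Polycomb genes. GV H3K36me3 was called at 7 of 8 and 12 of 13, beside 62.2% of all genes. Promoter H3K4me3 was found at all 13 Polycomb genes in c13, c34, E18.5 and GV, and at 8, 7, 7 and 6 DNA methylation genes. In c7, c13, c34, E18.5 and GV, H3K27me3 was called at 3, 8, 2, 2 and 1 Polycomb genes. For DNA methylation genes these counts were 4, 6, 2, 4 and 1.

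Over all 13 lists, Kdm5a, Setd2 and Kdm4a had the same calls as each other, which 9.32% of genes shared. Kmt2b and Kmt2d shared theirs with 7.45%, Kdm1a and Nsd1 with 1.52% and Kdm1b and Kdm5b with 0.592%. Of these 4 groups, Kmt2b with Kmt2d and Kdm1b with Kdm5b are enzymes of the same residue and direction, and the other groups join genes of different roles. Both same-role groups depend on the window of 1 kb. When a peak had to hold the start base or an annotated end itself, Kmt2b and Kdm5b lost their c13 H3K27me3 call. Kmt2d and Kdm1b kept theirs, so neither group held.

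Likeness was measured as the mean absolute difference over the 13 lists in percent covered, of the window of 5 kb on each side of the start or of the body for H3K36me3, among genes over 1 Mb away. Closest to Kmt2a were Nfe2l2 (13 percentage points) and Helz (13.9), beside a median of 41.8 over all genes. Closest to Kmt2b were Ino80e (2.13) and Hirip3 (2.31), and to Kmt2d Atpsckmt (0.294) and Cct5 (1.54). Kdm1b was most like D130043K22Rik (5.0) and St3gal5 (5.06). Kdm5b was closest to Pds5a (4.79) and Abraxas1 (4.8), and Nsd1 to Bnip3 (3.89) and Actrt3 (4.37). Of the genes given here, Kmt2a was the farthest from its closest gene.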

How the data were processed

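CATCH-seq libraries of H3K4me3 (4 in c13, 2 in c34, 2 at E18.5, 1 in GV oocytes), H3K27me3 (2 in each of c7, c13, c34 and E18.5, 1 in GV oocytes) and H3K36me3 (2 at each of 4 stages) were grouped by the labels. The deposited files hold peaks in an other unit than counts, namely positions in base pairs without score: per the file headers a chromosome, a start from 0 and an inclusive end. The tools in the submitters' processing notes are MACS2 2.1.1, SICER 0.0.41, deepTools 3.5.0, bedtools 2.29.2, Picard 2.18.23, SAMtools 1.7, Bowtie2 2.3.4.1, cutadapt 1.9.1 and Trim Galore 0.4.1, with the builds mm10 and GRCm38.p3. The caller of each list, its threshold, the use of input and pooling remain not given in the sources used here, and depth is unknown. Input libraries have no list and were not used here.

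Peaks were intersected with RefSeq gene spans and promoter starts of GRCm38.p6 (1-based) in Python 3.11.15 with numpy 2.4.6 and pandas 2.3.3, after tests on simulated data. Named genes were, by rule, the 10 genes, list genes whose call differs between c34 and GV oocytes or c13 and E18.5 (at most 8 per mark and comparison), and the 2 genes closest in coverage to each gene whose promoter call varies. List genes beyond this rule were also named. These were all with a differing H3K27me3 call between c13 and E18.5, all with H3K36me3 in E18.5 oocytes, and Setd5. The closest genes of Kdm1a are not reported here. The members and lists were chosen with earlier results of these data known. Alternatives changed the window, overlap, peak width, number of peaks, joining of peaks and body share.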

Additional observations from a re-analysis of the deposited data

Results flagged for a closer look

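Changes of body coverage from the earlier to the later stage, c34 minus c13 in culture and GV minus E18.5 in animals, went opposite ways for 7 of 30 pairs of a gene and a mark. The share of all genes that did so was not computed, so this count cannot be read as particular to the 10 genes. With 1 list per stage the difference between the 2 changes was not tested. For Kmt2a H3K27me3 it was -10.3 percentage points in culture and 100.0 in animals. Kdm1a H3K36me3 gave -5.3 in culture and 75.5 in animals, and Nsd1 H3K36me3 -0.2 and 90.6. These 2 genes were covered in c13 and bare at E18.5, so the animal change starts at 0. Their c34 H3K36me3 edges lay 2.72 kb (Kdm1a) and 0.219 kb (Nsd1) inside the gene. Both culture changes are thus smaller than a step of the 10 kb grid. For H3K4me3, Kdm1b gave 16.7 in culture and -62.1 in animals, Kdm5b -13.6 and 30.3, Setd2 -19.3 and 1.17, and Nsd1 -4.59 and 2.5. The animal change of Setd2 is 1 step of the 1 kb grid, with peak ends at 110536000 in E18.5 and 110537000 in GV oocytes.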

How the results depend on the processing

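Of 131 values under alternative settings, 120 stayed within 1.5 times of the value reported and 11 did not. The 120 include values of 0 that stayed 0, which stricter settings could not raise. They also include the c13 H3K27me3 count, which was 5 at the start base alone, against 7 as reported. When each list was limited to its wider peaks (median width or more), promoter calls were 4 of 10 for H3K4me3 in GV oocytes (Kmt2a, Kdm1a, Kdm5b, Nsd1) and, for H3K27me3, 4 in c13, 1 in c34 (Kdm1a) and 0 in GV oocytes. With the same number of peaks in every list of a mark, widest first, H3K27me3 was called at 1 gene in c34 (Kdm1a), and H3K36me3 at 5 in c34 and 4 in GV oocytes. H3K4me3 was then called at 7 genes in GV oocytes, without Kdm5a, Setd2 and Kdm4a, which is within 1.5 times. Without peaks of 1 Mb or more, H3K36me3 was called at 0 genes in c13. With at least 50% of the span required, H3K36me3 was called at 9 genes in GV oocytes, without Kmt2a. With 5 kb on each side of the start, H3K27me3 was called at 1 gene at E18.5 (Kdm1b). The share of all genes called under these settings was not computed, so none of these counts can be set against it. Over the 7 genes with a strand, the median c34 H3K4me3 cover was 94.9% of a window of 2 kb on each side, against 60% of 5 kb, and the median GV body cover was 0% without the first 5 kb, against 11% with it. The call at the annotated start of the span was added after seeing the data. No paired analysis was possible because each group has 1 list, whose columns carry no replicate number. Leaving out libraries was likewise not possible. Unknown depth limits every comparison of peak presence, width and coverage.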
